A study of Mus musculus with 13 samples.

Results

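The plasminogen activator system is described here through 6 genes out of the 57010 listed for each library of RNA from mouse embryonic fibroblasts (MEFs): Plau, Plat, Plaur, Serpine2, Serpinb2 and Serpinf1. They were chosen by their counts in the 4 groups of these libraries, so the values below describe them and no p-value is given for any of the 6. All 6 passed the filter on low counts, which left 15034 genes, although Serpinb2 passed only through control and untreated senescent MEFs.

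Fucoidan-FV, a sugar polymer rich in sulfate that is taken from the seaweed Fucus vesiculosus, was tested in the study as an agent against senescent cells, which stay alive after damage but no longer divide. All MEFs were wild type (WT), grown at low oxygen from mid-gestation embryos whose viscera had been removed, and 4 groups were compared. Control WT MEFs were untreated. Untreated senescent WT MEFs had spent 24 h with 2 μM etoposide, which traps topoisomerase on DNA and breaks it, and a further 5 days without it. The other groups were senescent WT MEFs whose RNA was taken 12 h after Fucoidan-FV was added, at 100 μg/mL in one group and 300 μg/mL in the other; the labels write the inducer as "Eo" for untreated and as "Eto" for treated senescent MEFs. Each group held mice 4, 5 and 6 of the labels, and control mouse 5 had 2 libraries, 5(1) and 5(2), which were summed, so that n = 3 in each group.

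Plasmin is a protease that dissolves fibrin and cuts many matrix proteins. It is released from plasminogen by the urokinase and tissue-type activators, encoded by Plau and Plat, and urokinase acts largely while held on the cell surface by its receptor, encoded by Plaur. Serpins, proteins that trap a protease by acting as a bait, hold both activators in check, among them PAI-2 (Serpinb2) and protease nexin-1 (Serpine2). Fibroblasts make most of these proteins themselves, and several of them belong to the secreted factors for which senescent cells are known.

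The libraries held 22782536 to 31278750 counts. Of 10 fibroblast markers 9 or 10 had a mean over 1 CPM, a count scaled by library size and composition, in every group, and Top2a, a proliferation gene, was lower in every senescent library than in any control library. Summed macrophage markers reached 0.562 to 5.38 CPM in control and 2.74 to 17.5 in untreated senescent MEFs. They reached 6.28 to 14.4 CPM at 100 μg/mL and 3.79 to 11.7 at 300 μg/mL. Of these, Adgre1 was at 0 in some libraries of control and 300 μg/mL MEFs. Csf1r (0.469 to 8.86 CPM) and Lyz2 (0.0937 to 6.42 CPM) had counts in every library. Summed endothelial markers were lower in control MEFs (1.69 to 4.49 CPM) than in any senescent sample, as was Serpine2. The summed markers were at 4.60 to 7.01 CPM in untreated senescent, 6.71 to 12.5 at 100 μg/mL and 5.46 to 9.19 at 300 μg/mL. Of these, the receptor gene Tek had 0.172 to 0.861 CPM in untreated senescent and 3.68 to 7.94 CPM in treated MEFs. Esam, of the same list, went the other way, from 3.14 to 4.81 CPM in untreated senescent to between 0.165 and 2.01 CPM in treated MEFs. Keratinocyte markers reached 0.246 to 5.96 CPM. Summed skeletal muscle markers, nearly all of it the actin gene Acta1, were 79.9 to 169 CPM in control, 75.4 to 94.7 in untreated senescent, 16.6 to 52.3 at 100 μg/mL and 18.5 to 44.7 at 300 μg/mL, lower in the same samples as Plaur and Serpinb2, while the defining muscle genes Myod1 and Myog were at or near 0 in every library. Their part in the values below was not tested, and in RNA from whole cultures fewer cells of a type and less RNA per cell cannot be told apart. Libraries 5(1) and 5(2) of control mouse 5 stood apart from each other in some of the 6 genes, as given with those genes.

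In outline, 1 inhibitor was far higher in senescent than in control MEFs, with overlapping values in treated and untreated senescent MEFs (Serpine2), while the other inhibitor and the urokinase receptor were far lower in treated than in untreated senescent MEFs at both doses (Serpinb2 and Plaur). For the activators and Serpinf1 no difference between treated and untreated senescent MEFs passed the thresholds. The thresholds were those of the study throughout: the log2 fold change had to exceed 1 in size, with an adjusted p below 0.05.

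The promoters of the 3 genes with these large differences are shown because they differ in composition from one to the next, and because Serpinb2 and Plaur were low in the same samples. Each is the 250 bases upstream of a start of transcription in RefSeq (build GRCm38.p6), 5′ to 3′ on the strand of the gene. RefSeq windows matched 4 of the 6 genes, and for Serpinb2, which has 2, the upstream one is shown. Capitals mark AP-1 sites (TGANTCA) in Serpinb2 and Plaur and Sp1 sites (GGGCGG) in Serpine2, searched on both strands.
Serpinb2, chr1:107511173-107511422, plus strand: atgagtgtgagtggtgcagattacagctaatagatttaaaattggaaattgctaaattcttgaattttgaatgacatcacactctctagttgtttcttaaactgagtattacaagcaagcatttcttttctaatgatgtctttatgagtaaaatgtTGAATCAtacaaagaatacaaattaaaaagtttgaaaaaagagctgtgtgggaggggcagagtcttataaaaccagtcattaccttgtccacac
Plaur, chr7:24462233-24462482, plus strand: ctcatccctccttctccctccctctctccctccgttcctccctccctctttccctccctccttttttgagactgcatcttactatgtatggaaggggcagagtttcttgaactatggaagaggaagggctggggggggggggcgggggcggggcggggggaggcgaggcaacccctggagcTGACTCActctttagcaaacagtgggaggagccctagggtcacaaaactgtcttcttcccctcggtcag
Serpine2, chr1:79858666-79858915, minus strand: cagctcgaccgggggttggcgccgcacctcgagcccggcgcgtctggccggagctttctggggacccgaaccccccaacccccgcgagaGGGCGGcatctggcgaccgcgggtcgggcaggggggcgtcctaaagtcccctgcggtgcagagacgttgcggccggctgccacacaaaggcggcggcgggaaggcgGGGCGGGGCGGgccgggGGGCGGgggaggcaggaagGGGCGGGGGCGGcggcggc

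The AP-1 motif, the letters bound by Fos and Jun dimers, lay from -94 to -88 in Serpinb2 and from -69 to -63 in Plaur, counted back from -1 at the base before the start. It occurred in 6.75% of 32851 promoter windows of the same length. Serpinb2 also held a TATA box (TATAAA, in 12.4% of windows) from -29 to -24, and its window was poor in G and C (32.4%, against a median of 52.4% over all windows). The other Serpinb2 start lies 87 bases downstream, and counted from it the same AP-1 and TATA matches lie from -181 to -175 and from -116 to -111, in a window of 38.4% G and C. The Serpine2 window was 78.8% G and C and held 6 Sp1 matches, of which some overlap by a base; Plaur, at 59.6% G and C, held 3, left in lower case above. The Sp1 letters occurred in 32.7% of windows. The cyclic AMP response element (TGACGTCA), found in 1.55% of windows, was in none of these promoters, and the Serpinf1 window (51.6% G and C) held none of the 4 motifs. A match is a description of the letters and not evidence of binding.

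**Figure D1:**
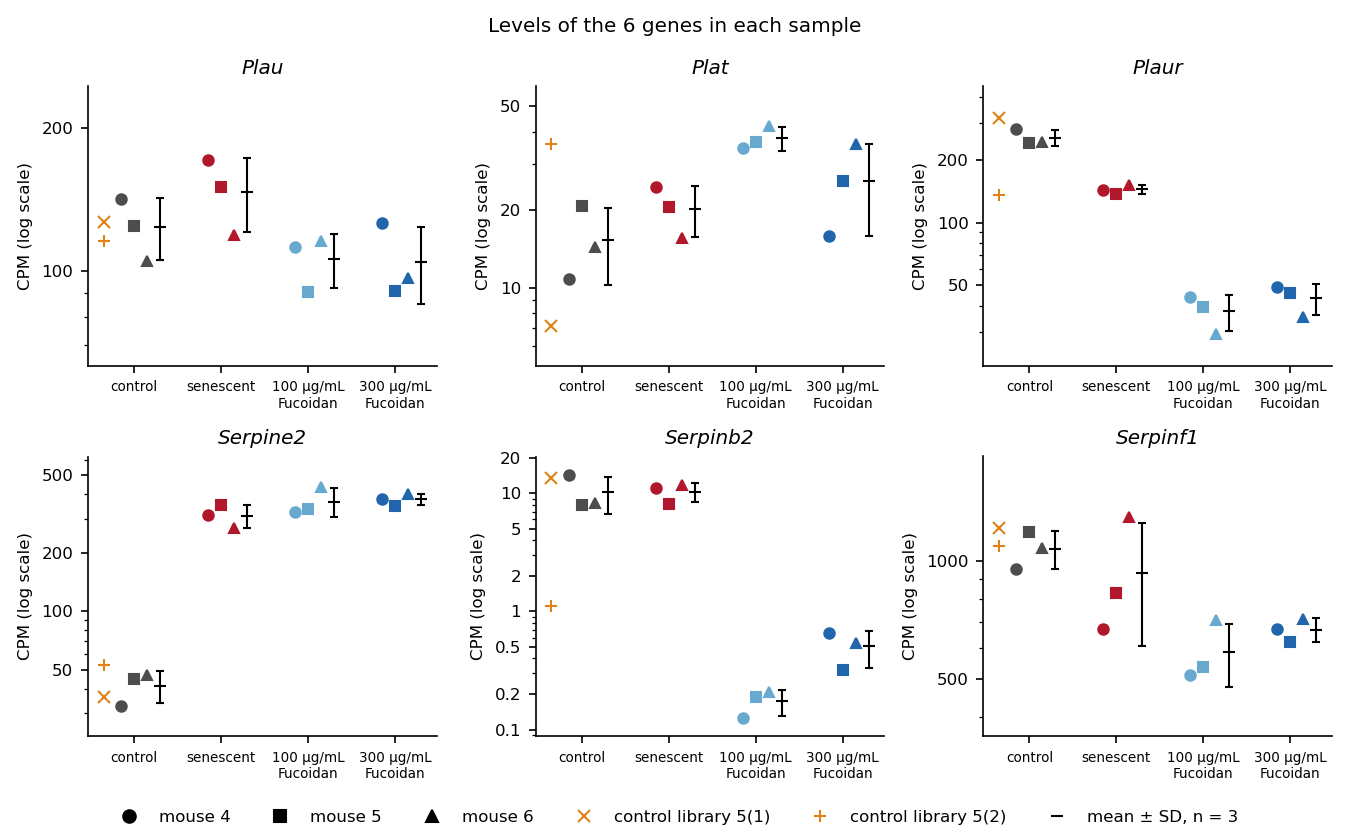
CPM on a log scale for each of the 6 genes in control, untreated senescent and Fucoidan-FV-treated senescent MEFs; symbols stand for mice 4, 5 and 6, orange crosses for the separate libraries of control mouse 5, and bars for mean ± SD of 3 mice. Serpine2 separates control from all senescent samples, Plaur and Serpinb2 separate treated from untreated samples, and the Plau groups lie close together.

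Plau (ENSMUSG00000021822, GRCm39 chr14:20886722-20893453, plus strand) encodes urokinase. Its level in CPM was 142, 125 and 105 in control mice 4, 5 and 6 and 172, 150 and 119 in untreated senescent MEFs. It was 112, 90.3 and 116 at 100 μg/mL and 126, 90.7 and 96.6 at 300 μg/mL. Senescent and control values overlapped (log2 fold change 0.25, standard error (SE) 0.20). All values at 100 μg/mL lay below those of untreated senescent MEFs, but the difference did not pass the thresholds (log2 fold change -0.47, SE 0.20). At 300 μg/mL the groups overlapped again, and the log2 fold change was -0.49 (SE 0.20). The order of the group means in CPM was untreated senescent, control, 100 μg/mL and 300 μg/mL, and control and 100 μg/mL overlapped, as did the doses. In TPM control MEFs had the lowest mean (98.6, against 116 at 100 μg/mL and 106 at 300 μg/mL), and on the log2(TPM + 0.5) scale the difference of 100 μg/mL from control was 0.23, in place of a log2 fold change of -0.22. On the opposite strand, 15.1% of the exonic bases of Plau are shared with another gene.

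Plat (ENSMUSG00000031538, chr8:23247709-23272871, plus strand) encodes tissue-type activator and was the lower of the activators, with a mean of 7.92 ± 3.20 TPM (a level per length; SD, n = 3) in control MEFs against 98.6 ± 15.1 TPM for Plau. Its CPM was 10.8, 20.7 and 14.3 in control, 24.5, 20.4 and 15.6 in untreated senescent, 34.5, 36.5 and 41.9 at 100 μg/mL and 15.9, 25.8 and 36.0 at 300 μg/mL. The 3 values at 100 μg/mL lay above every control and untreated senescent sample, though not all above control library 5(2) taken alone (35.9 CPM), while those at 300 μg/mL overlapped all other groups. The log2 fold change was 0.40 (SE 0.32) for senescent against control, 0.90 (SE 0.32) for 100 μg/mL and 0.36 (SE 0.32) for 300 μg/mL against untreated senescent MEFs, and none of them passed the thresholds. Against control MEFs it was 2.46-fold higher at 100 μg/mL (SE 0.33 on the log2 scale), past both thresholds, in 14 of 18 alternative analyses too.

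At 100 μg/mL the log2 fold changes of Plat were smaller with an adjustment for a property of the libraries. Of its sequence, 86.3% occurs in a single annotated transcript, and genes with more than 95% such sequence had a median deviation (log2) between -0.98, in control mouse 6, and 0.82, in mouse 5 given 100 μg/mL. With an offset for this trend, the log2 fold change of Plat at 100 μg/mL against untreated senescent MEFs was 0.47 in place of 0.90. Against control MEFs it was 0.71, no longer past the thresholds. Plat itself did not follow the trend in every group: at 100 μg/mL mouse 6 had the lowest trend value for Plat (-0.10, log2) and the highest CPM (41.9). Of the libraries of control mouse 5, 5(2) was higher than 5(1) in both, with trend values of 0.56 and -0.89. Library 5(2) held 35.9 CPM of Plat and library 5(1) 7.17 CPM, and 3.74% of all genes differed more between them. With 5(1) alone the log2 fold change of senescent against control MEFs was 0.91, and with 5(2) alone -0.01.

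Plaur (ENSMUSG00000046223, chr7:24161875-24175394, plus strand) encodes the urokinase receptor, a protein anchored in the membrane by lipid, whose shed form circulates in blood. Its CPM was 281, 240 and 245 in control MEFs and 144, 137 and 152 in untreated senescent MEFs. With Fucoidan-FV it was 43.9, 39.4 and 29.3 at 100 μg/mL and 49.2, 45.9 and 35.2 at 300 μg/mL. Every senescent value lay below that of every control mouse, though control library 5(2) alone (135 CPM) lay below all 3 untreated senescent samples. Every treated value lay below every untreated one, this library included, while the doses overlapped.

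Plaur was lower by 0.82 (log2, SE 0.19) in senescent than in control MEFs, which passed the adjusted p but not the fold threshold. Against untreated senescent MEFs it was 3.85-fold lower at 100 μg/mL (log2 fold change -1.94, SE 0.20) and 3.33-fold lower at 300 μg/mL (-1.73, SE 0.19), past both thresholds in the main and in all 18 alternative analyses. Against control MEFs, the log2 fold change was -2.77 (SE 0.20) at 100 μg/mL and -2.56 (SE 0.20) at 300 μg/mL. Library 5(1) had 317 CPM. With 5(2) alone for control mouse 5, senescent MEFs were lower than control by 0.61 (log2 fold change -0.61).

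Serpine2 (ENSMUSG00000026249, chr1:79763323-79839144, minus strand) encodes protease nexin-1, a secreted serpin that blocks thrombin, urokinase and plasmin and binds heparin. Control MEFs held 32.5, 44.8 and 47.2 CPM, and untreated senescent MEFs 311, 351 and 269 CPM. At 100 μg/mL the values were 326, 335 and 438 CPM and at 300 μg/mL 379, 350 and 399 CPM. The 9 senescent samples did not overlap the controls, the libraries of control mouse 5 included (36.1 and 53.1 CPM). Among the senescent groups the values overlapped.

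Serpine2 was 7.48-fold higher in untreated senescent than in control MEFs (log2 fold change 2.90, SE 0.20), past the thresholds in all 18 alternatives, in which it ran from 2.74 to 3.02. Against untreated senescent MEFs, the log2 fold change was 0.24 (SE 0.19) at 100 μg/mL and 0.28 (SE 0.19) at 300 μg/mL, and neither passed. With the offset for single-transcript sequence, of which Serpine2 has 81.0%, the value at 100 μg/mL was -0.06. Treated senescent MEFs were 8.82-fold (100 μg/mL) and 9.06-fold (300 μg/mL) above control.

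Serpinb2 (ENSMUSG00000062345, chr1:107428593-107463208, plus strand) encodes PAI-2, a serpin that mostly stays inside the cell. Its CPM was 14.3, 7.99 and 8.27 in control MEFs and 11.1, 8.10 and 11.8 in untreated senescent MEFs, the latter from 348, 188 and 347 counts. At 100 μg/mL it was 0.125, 0.189 and 0.208 CPM, from 4, 5 and 6 counts. At 300 μg/mL it was 0.659, 0.320 and 0.539 CPM, from 17, 9 and 13 counts. Control and untreated senescent values overlapped, every treated value lay far below them, and each value at 300 μg/mL was above each at 100 μg/mL.

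The log2 fold change of Serpinb2 was 0.02 (SE 0.39) for senescent against control MEFs. Against untreated senescent MEFs it was -5.87 (SE 0.51) at 100 μg/mL, a 58.3-fold lower level, and -4.35 (SE 0.46) at 300 μg/mL, a 20.3-fold lower one, and both passed the thresholds. Values of this size rest on few counts: on the log2(TPM + 0.5) scale, which compresses low levels, they were -3.58 and -3.09, and with at least 10 counts required in every sample Serpinb2 was not tested. Between the doses, the log2 fold change of 300 against 100 μg/mL was 1.52 (SE 0.48), which did not pass. Because Serpinb2 passed the filter only through control and untreated senescent MEFs, no weight is placed on its passing the thresholds.

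The libraries of control mouse 5 differed more in Serpinb2 than in almost any other gene: 13.4 CPM (381 counts) in 5(1) against 1.10 CPM (26 counts) in 5(2), a log2 difference of -3.12 that only 0.14% of 15034 genes exceeded. The median absolute difference between these libraries was 0.46 over all genes. With 5(1) alone, the log2 fold change of senescent against control MEFs was -0.22, and with 5(2) alone 0.39. The treated samples lay below 5(2) as well. On the opposite strand, 10.7% of the exonic bases of Serpinb2 are shared with another gene, and 88.3% of its sequence occurs in no other gene.

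Serpinf1 (ENSMUSG00000000753, chr11:75299998-75322362, minus strand) encodes pigment epithelium-derived factor, a secreted serpin that restrains vessel growth and, unlike the others, does not inhibit proteases. Its CPM was 952, 1185 and 1079 in control, 672, 828 and 1289 in untreated senescent, 511, 537 and 708 at 100 μg/mL and 672, 621 and 713 at 300 μg/mL. Treated values lay below all controls, and both treated groups overlapped untreated senescent MEFs, whose mouse 6 was the highest sample of all. The log2 fold change was -0.21 (SE 0.23) for senescent against control MEFs, -0.67 (SE 0.23) at 100 μg/mL and -0.48 (SE 0.23) at 300 μg/mL, none past the thresholds. Without senescent mouse 6, senescent against control MEFs gave -0.51, and the values against untreated senescent MEFs were -0.22 at 100 μg/mL and -0.12 at 300 μg/mL. On the opposite strand, 7.09% of its exonic bases are shared with another gene.

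**Figure D2:**
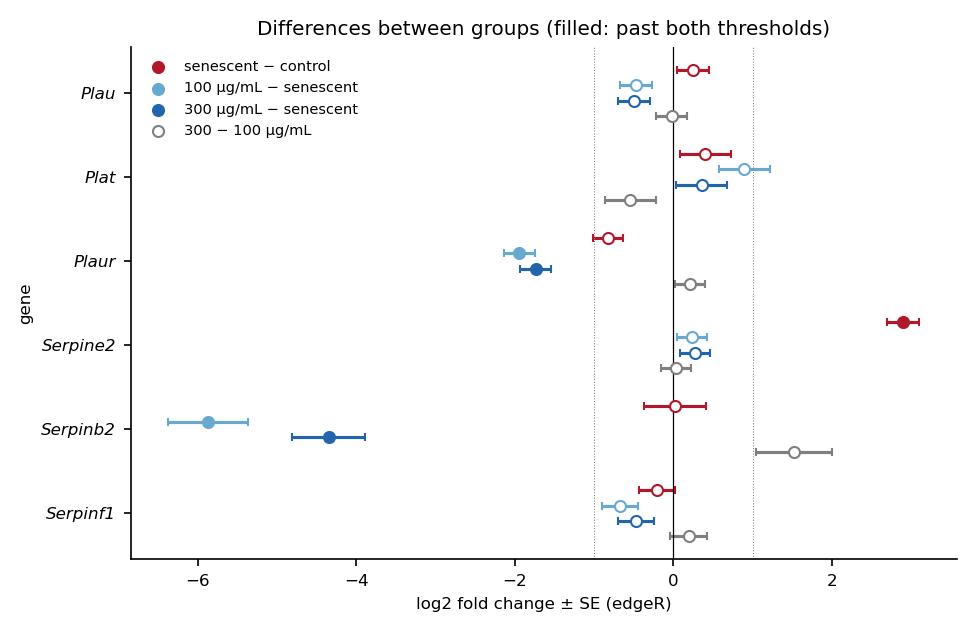
Log2 fold change ± SE (horizontal axis, edgeR) of the 6 genes (vertical axis) in 4 comparisons given by color; filled points are past an adjusted p of 0.05 and an absolute log2 fold change of 1 (dotted lines). Serpine2 is filled at 2.90 for senescent minus control, and Serpinb2 and Plaur are filled for both doses minus untreated senescent, between -5.87 and -1.73.

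Of the 6 genes, 1 (Serpine2, higher) was past the thresholds between untreated senescent and control MEFs, where 8.42% of all genes tested were (4.47% higher, 3.95% lower). At 100 μg/mL 2 of 6 were (Serpinb2 and Plaur, lower), beside 2.69% of all genes (1.10% higher, 1.60% lower), and at 300 μg/mL the same 2 genes, beside 1.64% (0.752% higher, 0.885% lower). Between the doses none of the 6 passed, and 0.00665% of all genes did. Nothing is read from these counts, because the genes were named with these values known, and the comparisons of both doses share the untreated senescent samples. Against control MEFs, 4 of 6 passed at 100 μg/mL (Serpine2 and Plat higher, Serpinb2 and Plaur lower; 19.7% of all genes, 10.3% higher and 9.37% lower) and 3 of 6 at 300 μg/mL (Serpine2 higher, Serpinb2 and Plaur lower; 18.0% of all genes, 9.87% higher and 8.11% lower).

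Groups that did not overlap at all were seen for 2 of 6 genes between untreated senescent and control MEFs (27.1% of all genes), for 4 of 6 at 100 μg/mL (26.2%) and 2 of 6 at 300 μg/mL (19.6%) against untreated senescent MEFs, and for 1 of 6, Serpinb2, between the doses (7.54%). Against control MEFs it was 5 of 6 genes at 100 μg/mL (48.3% of all genes) and 4 of 6 at 300 μg/mL (43.3%). The 4 at 100 μg/mL against untreated senescent MEFs were Plaur and Serpinb2, past the thresholds, and Plau and Plat, which were not.

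Levels per length put the genes on a common scale. In control MEFs Serpinf1 had 1640 ± 126 TPM, Plaur 286 ± 41.2, Plau 98.6 ± 15.1, Serpine2 56.7 ± 12.4 and both Plat and Serpinb2 under 10 (7.92 ± 3.20 and 7.89 ± 2.98 TPM; SD, n = 3). In untreated senescent MEFs Serpine2 stood at 442 ± 128 TPM, above Plaur at 169 ± 24.7 TPM. At 100 μg/mL Serpine2 was at 651 ± 96.3 TPM and Plaur at 60.2 ± 15.1 TPM. Between groups the TPM scale itself moved: at 100 μg/mL against untreated senescent MEFs, the median of all genes was 0.34 on the log2(TPM + 0.5) scale. In the main analysis the log2 fold change of Serpine2 there was 0.24. Serpinb2 was at 0.173 ± 0.0404 TPM at 100 μg/mL and 0.453 ± 0.119 at 300 μg/mL.

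Proportions between these levels were formed after the values had been seen and are given as a description. The TPM of Serpine2 per summed TPM of the activator genes Plau and Plat was 0.355 to 0.730 in control and 2.77 to 3.89 in untreated senescent MEFs. With Fucoidan-FV it was 3.84 to 5.42 at 100 μg/mL, overlapping untreated senescent MEFs, and 4.95 to 5.85 at 300 μg/mL, above them. Plat made up 4.87% to 10.7% of the activator sum in control and 7.03% to 8.21% in untreated senescent MEFs. Its share was 17.5% to 22.0% at 100 μg/mL, above every untreated mouse but not above control library 5(2) alone (17.9%), and 6.62% to 19.1% at 300 μg/mL, where mouse 4 lay among the untreated samples. The ratio of Plaur to Plau was 2.62 to 3.23 in control, 1.17 to 1.73 in untreated senescent, 0.374 to 0.635 at 100 μg/mL and 0.497 to 0.762 at 300 μg/mL. In control library 5(2) alone it was 1.69, within the range of untreated senescent MEFs. Plat's share was not adjusted for the trend with single-transcript sequence given above. Ratios of RNA levels say nothing of the amounts or activity of the proteins.

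**Figure D3:**
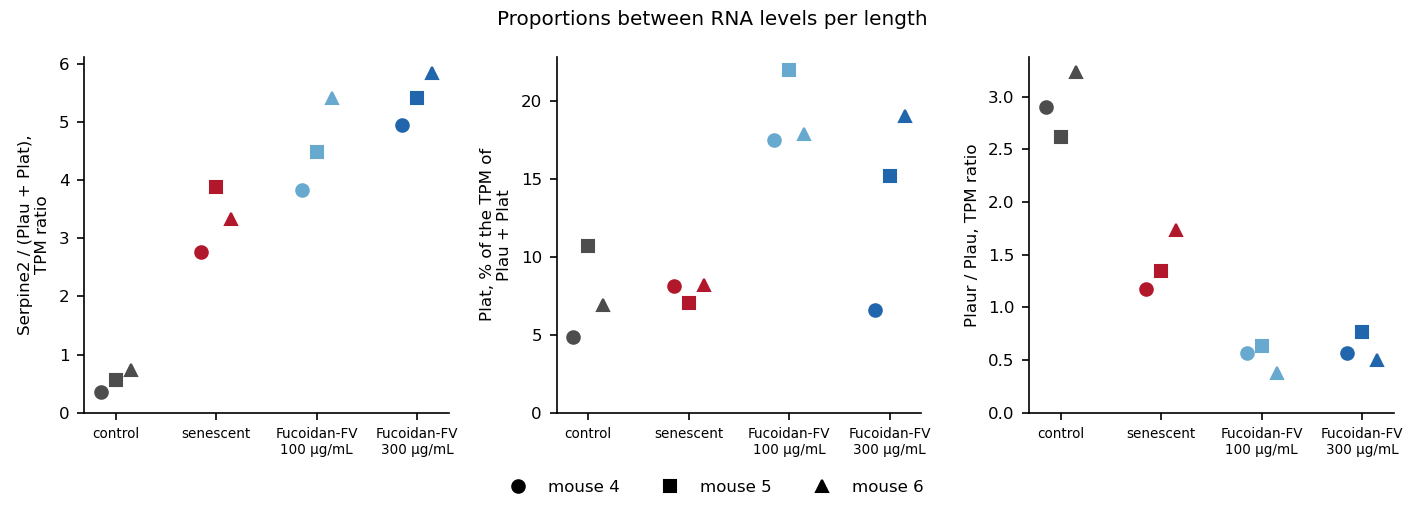
Proportions of TPM in each of 3 mice per group (symbols): Serpine2 over the sum of Plau and Plat (left), Plat as a percent of that sum (middle) and Plaur over Plau (right), all axes from 0. Control mice are apart from all other samples on the left and right (library 5(2) alone, not drawn, would not be on the right), the ratio of Plaur to Plau is lower in every treated than in every untreated sample, and the doses overlap in each panel.

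The remaining serpins were looked at as a family: 66 further genes carry a Serpin symbol, 22 of them without a count in any library, and 14 passed the filter. Between untreated senescent and control MEFs, 6 of the 14 were past the thresholds, all higher, beside 8.42% of all genes tested (4.47% higher, 3.95% lower), and the median log2 fold change of the 14 was 1.40, against 0.07 over all genes. Some of the 14 passed the filter only through senescent MEFs, among them Serpinb1a and a serpin at 0 CPM in control. That serpin, at 0.348 CPM in untreated senescent MEFs, is among the 6. The count and median of the 14 thus lean towards higher values in senescent MEFs, and nothing is read from them. Serpinb1a, an inhibitor of neutrophil proteases, rose from 0.121 ± 0.118 to 2.05 ± 0.411 CPM (adjusted p = 0.0187 by edgeR, log2 fold change 3.79, SE 0.94). The control level of Serpinb1a was close to 0 CPM, so the size of this fold change rests on few counts. It was smaller on the log2(TPM + 0.5) scale, which compresses low levels. Because Serpinb1a passed the filter only through senescent MEFs, no weight is placed on its adjusted p here. Serpinb9b, of the granzyme inhibitor branch, rose from 4.89 ± 2.40 to 22.4 ± 2.90 CPM (2.19, SE 0.37, adjusted p = 0.00221), as did Serpinb6b (2.42, SE 0.57, adjusted p = 0.0153). Serping1, the C1 inhibitor of the complement and contact systems, rose by 1.62 on the log2 scale (SE 0.44, adjusted p = 0.0296); it did not pass without senescent mouse 4 (1.05), without control mouse 4 (1.36) or 6 (1.65), or with the mouse number as a block (1.46). Serpinb1a and Serpinb6b did not pass without control mouse 4 (3.73 and 2.25). Nor did Serpinb1a pass with only the groups compared in the fit (3.95), or Serpinb6b with 5(2) alone (2.06). The lists of genes were chosen with earlier results of these libraries known.

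Against untreated senescent MEFs, at 100 μg/mL, 4 of the 14 serpins were higher (1.10% of all genes) and 1 lower (1.60%), with a median of 0.26 against -0.02 over all genes. At 300 μg/mL 1 was higher and 1 lower (0.752% and 0.885% of all genes), with a median of 0.04 against 0.00. Serpinb1a rose further, to between 24.5 and 129 CPM at 100 μg/mL (4.91, SE 0.81, adjusted p = 0.00719) and between 16.5 and 101 CPM at 300 μg/mL (4.60, SE 0.80, adjusted p = 0.0113). Mouse 6 was the highest sample at both doses; without it, the values were 3.79 and 3.59, and the latter did not pass. Serpinb9, a granzyme B inhibitor, rose at 100 μg/mL (2.44, SE 0.62, adjusted p = 0.0471), as did Serpinb6b (2.32, SE 0.56, adjusted p = 0.0382). Neither passed when any 1 of the 6 samples compared was left out, with values of 1.27 to 2.81 for Serpinb9 and 1.44 to 2.62 for Serpinb6b, the lowest without mouse 6 at 100 μg/mL. Serping1 rose from 7.58 ± 4.15 to 26.7 ± 8.78 CPM (1.81, SE 0.43, adjusted p = 0.0382), and passed in 9 of 18 alternatives. It did not pass without senescent mouse 5 (1.72) or 6 (1.74), or without mouse 4 (1.60), 5 (2.06) or 6 (1.74) at 100 μg/mL. With the mouse number as a block, Serpinb6b (2.11) and Serping1 (1.85) did not pass at 100 μg/mL.

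Of 23 partners of plasminogen (substrate, receptors, cofactors and clearance), 18 passed the filter. Between untreated senescent and control MEFs 1 was lower (3.95% of all genes), and the median of the 18 was 0.09, against 0.07 over all genes. At 100 μg/mL 2 were lower (1.60% of all genes), with a median of 0.06 against -0.02. At 300 μg/mL 1 was lower (0.885% of all genes), with a median of 0.22 against 0.00. Itga5, the fibronectin receptor subunit, fell from 1786 ± 368 CPM in untreated senescent MEFs to 431 ± 34.9 at 100 μg/mL (-2.05, SE 0.21, adjusted p = 0.000442) and 484 ± 67.7 at 300 μg/mL (-1.88, SE 0.21, adjusted p = 0.000955), in all 18 alternatives at each dose. Anxa2, whose protein gathers plasminogen and tissue-type activator on the cell surface, fell at 100 μg/mL (-1.04, SE 0.19, adjusted p = 0.0102), close to the fold threshold, and passed in 5 of 18 alternatives. Leaving out senescent mouse 4 (-0.98), 5 (-0.94) or 6 (-0.74), or mouse 4 (-1.01) or 5 (-0.97) at 100 μg/mL, ended that call.

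Of 23 coagulation genes 11 passed the filter. It can keep a gene through 1 group alone, so that nothing is read from the medians of this list. The median log2 fold change of the 11 genes was 0.85 between untreated senescent and control MEFs, 0.54 at 100 μg/mL and 0.05 at 300 μg/mL. Over all genes it was 0.07, -0.02 and 0.00. In the same order 1, 1 and 0 of them passed the thresholds, beside 8.42%, 2.69% and 1.64% of all genes. The gene that passed was Pros1, protein S, a cofactor of the anticoagulant protein C, at 19.7 ± 3.70 CPM in control, 39.5 ± 4.34 in untreated senescent, 89.8 ± 3.10 at 100 μg/mL and 69.8 ± 14.6 at 300 μg/mL. It rose with senescence (1.01, SE 0.21, adjusted p = 0.00672, at the fold threshold and past it in 10 of 18 alternatives) and again at 100 μg/mL (1.19, SE 0.21, adjusted p = 0.00861, passing in 16 of 18 alternatives). Without control mouse 5 (0.95) or 6 (0.93), or senescent mouse 4 (0.93) or 5 (0.99), the first of these did not pass, and the second did not pass with the offset for single-transcript sequence, alone (0.86) or with the block (0.82). F3, tissue factor, was just under the fold threshold between untreated senescent and control MEFs, whose values did not overlap (0.96, SE 0.21, adjusted p = 0.0101), and did not pass at either dose (-0.03, SE 0.21, adjusted p = 0.956 and 0.03, SE 0.21, adjusted p = 0.973). No gene of the 3 lists passed between the doses.

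**Figure D4:**
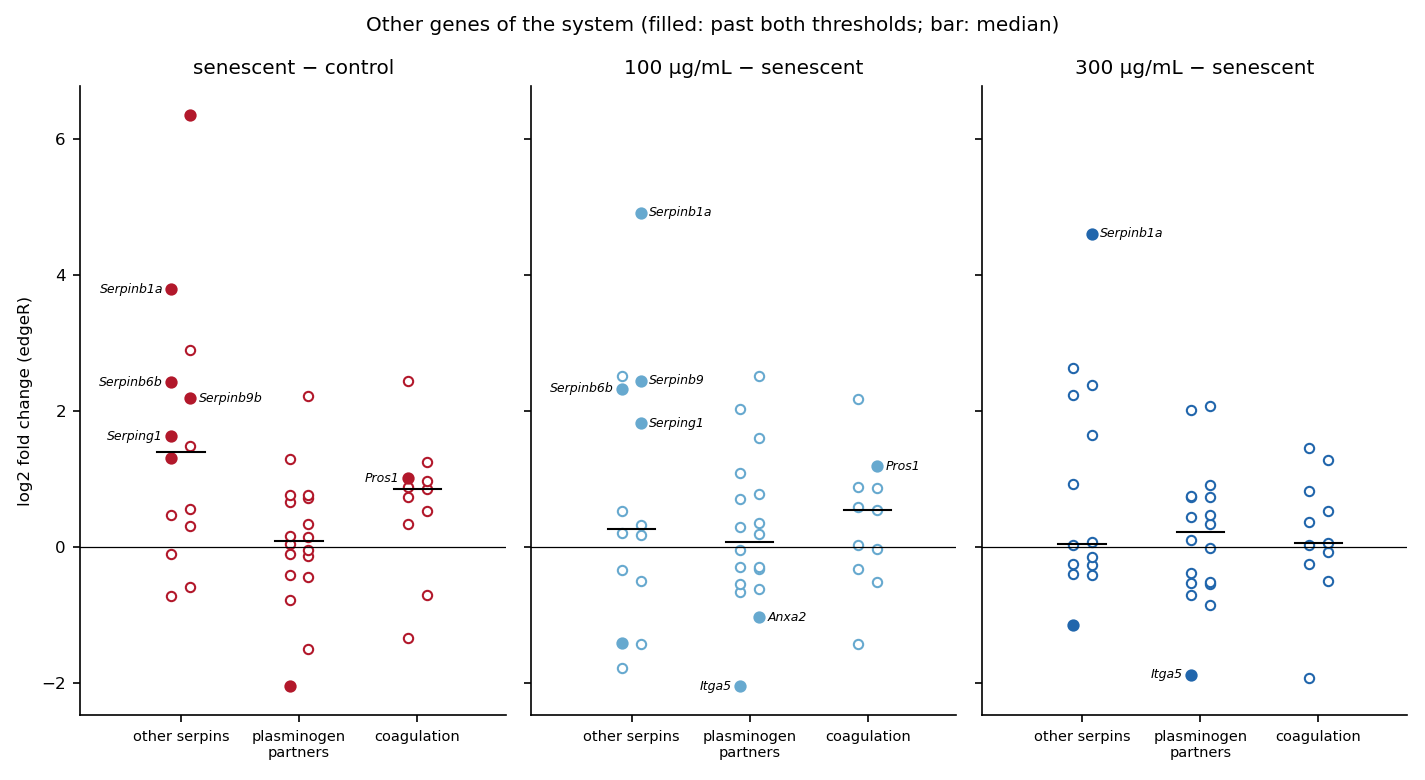
Log2 fold change (vertical axis, edgeR) of each tested gene of 3 lists (horizontal axis: 14 other serpins, 18 plasminogen partners, 11 coagulation genes) in 3 comparisons; filled points are past both thresholds, bars are list medians. Filled serpins lie above 0 for senescent minus control, and Itga5 is filled below 0 at both doses.

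The 6 genes did not share a single course over the 12 samples. Pearson's r of log2(CPM + 0.5), given as a description of points that share groups and libraries, was 0.95 between Serpinb2 and Plaur, 0.79 between Serpinb2 and Serpinf1, -0.81 between Serpine2 and Plaur and -0.81 between Plat and Plaur. Plau had r of -0.17 with Serpine2, 0.27 with Serpinf1 and 0.67 with Serpinb2.

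Over all 15034 genes, the 3 most like Plaur held Etv4, an ETS transcription factor (r = 0.99), and Hmga1, a chromatin protein (0.99). Hmga1 was also the most like Serpinb2 (0.97), followed by Ripk2, a kinase of innate immune signaling (0.97), and Gm28592 (0.97). Serpine2 was most like Ephx1, an epoxide hydrolase, and Fas, a death receptor and target of p53 (both 0.99), and Trim7 (0.98). Serpinf1 ran with Fkbp10, a chaperone of collagen (0.99), Rps18 (0.98) and Ntan1 (0.98). The genes nearest to Plau (Pxylp1, Rhbdd2 and Sap18b) reached 0.87 to 0.90 and those nearest to Plat (Cds1, Kcnd2 and Pik3r3) 0.90 to 0.91. These names hold for Pearson's r only, because other genes were nearest in every case when ranked by Spearman's rho.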

How the data were processed

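RNA of 4 groups of MEFs was sequenced from stranded total RNA libraries, 13 libraries for 3 mice per group. The authors trimmed reads with Trimmomatic, checked them with FastQC 0.12.1, aligned them to GRCm39 with STAR 2.7.11b and made an expected count per gene with RSEM 1.3.1, without normalization, as deposited; how strand was set in counting is not given in the sources used here. RSEM's TPM, which the authors deposited in the same files, is scaled for length and library size and served for levels between genes and for 1 alternative. The FPKM values that the authors deposited beside it were not used. A deposited table of all libraries held the same expected counts (largest difference 0).

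Expected counts were rounded, and libraries 5(1) and 5(2) of control mouse 5 were summed. The 15034 genes kept by filterByExpr (minimum count 10, minimum total 15) were tested in R 4.3.3 with the quasi-likelihood test of edgeR 4.0.16, with TMM factors, 1 fit over 12 samples and Benjamini-Hochberg adjustment over all genes. SE is the log2 fold change over the root of its F statistic. The paper gives 3 independent biological replicates per group. It does not say whether the samples of a mouse were cultured apart before treatment, so p-values measure the spread between these samples. With 3 against 3 an exact permutation test cannot go below 0.1. In simulated counts with 200 genes changed between 100 μg/mL and untreated senescent MEFs, 117 of them and 5 others passed, of 14387 genes.

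The members and the lists were chosen with earlier results of these data known. Genes of the lists are named, up to 4 per list and comparison, by the largest log2 fold change among those past the thresholds, with 1 CPM or more on average in the higher of the groups and 1 direction in 3 of 3 mice; F3 was named after its values were seen. For likeness the 3 genes with the highest r are named. Values of some genes that these rules name are not reported here.

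All groups carry the same mouse numbers, which by the labels pair the samples. How samples with 1 number deviated from their groups was correlated in 18 pairs (median r -0.04, from -0.33 to 0.60, with 8 over 0.1). This median does not decide whether samples with 1 number were related, since r differed widely between pairs. Other analyses used RLE factors, DESeq2 1.42.0, every gene with a count, at least 10 counts in every sample, only the 2 groups compared, 5(1) and 5(2) separate or either alone, the mouse number as a block, an offset per gene and library for sequence found in a single transcript (31-base words), limma 3.58.1 on log2(TPM + 0.5), the adjusted p alone, and each sample left out; the offset with the block was added after seeing the data. Promoter windows came from RefSeq on GRCm38.p6, another build than that of the gene coordinates, which come from the GENCODE annotation of GRCm39.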

Additional observations from a re-analysis of the deposited data

Results flagged for a closer look

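Among 16 genes examined in the 4 control libraries, 1 had a library far from the others: Serpinb6b, at 3.81 CPM in library 5(2) of mouse 5, 1.16 CPM in library 5(1) of the same mouse and 0.893 CPM in the lowest control sample. The gap between the highest library and the next was 0.908 of the whole range. Chance flags about 1 in 20 groups in this way.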

How the results depend on the processing

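Of the 6 genes, Serpine2 (senescent against control MEFs) and Plaur (both doses against untreated senescent MEFs) passed the thresholds in all 18 alternatives. Serpinb2 passed at both doses in all 17 in which it was tested. In the main analysis it passed the filter only through control and untreated senescent MEFs, so no weight is placed on this count. Requiring at least 10 counts in every sample left Serpinb2 out, so that 1 of the 6 passed at 100 μg/mL and 1 at 300 μg/mL, and with the adjusted p alone 2 passed between senescent and control MEFs. With the mouse number as a block, 1, 2 and 2 of the 6 passed in the 3 comparisons, as without it, and 0 between the doses. On the 3 lists, 8 genes passed between senescent and control MEFs, but 3 when only these groups were fitted, 5 with 5(2) alone, and 4 to 8 with 1 sample left out. At 100 μg/mL 8 passed, 4 with only these groups, 5 with 5(2) alone and 4 to 6 with 1 sample left out. At 300 μg/mL 3 passed, 8 with DESeq2, 9 without a filter, 6 with the offset, 5 with the offset and the block, 7 with limma on TPM, 5 with the adjusted p alone and 1 to 4 with 1 sample left out (1 without mouse 6 at 300 μg/mL). With the block alone the lists gave 6, 7 and 4 genes. The cause of these differences was not tested. The TPM scale moved the median of all genes by 0.36 at 100 μg/mL and 0.26 at 300 μg/mL (log2) against untreated senescent MEFs; on it Plau was at -0.06 and -0.18 and Serpinf1 at -0.15 and -0.08. With Spearman's rho in place of Pearson's r, 0 of the 3 nearest genes were shared for each of the 6 genes. Depth limits Serpinb2 most, at 4 to 17 counts in treated samples. No value turned its direction past the thresholds.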
